A study of Mus musculus with 36 samples.

Results

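The 7 mouse genes that encode the cyclin-dependent kinase inhibitors are described here in 4 primary cell types exposed to butyrate or β-hydroxybutyrate (βOHB). The members were matched by their symbols (Cdkn1a, Cdkn1b, Cdkn1c, Cdkn2a, Cdkn2b, Cdkn2c and Cdkn2d) and are 7 of the 54347 genes in the deposited table. All 7 were among the 15340 genes tested, which had a CPM (the count scaled to the size of its library) over 1 in 6 or more of the 36 libraries. Butyrate changed 4, 5, 4 and 4 of the 7 members in adipocytes, macrophages, myotubes and hepatocytes, where 61.0%, 65.0%, 66.5% and 63.5% of all tested genes changed, so that the share of members was near that of all genes. Cdkn2d and Cdkn1c rose in all 4 cell types, although the Cdkn1c call in myotubes was lost without butyrate library 1. Cdkn1a, the best known deacetylase inhibitor target of the family, rose in none of them and fell in myotubes. No member passed the test with βOHB.

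Cyclin-dependent kinases (CDKs) drive cells from one phase of division to the next when bound to their cyclins, and the inhibitors hold them back. The Cip/Kip proteins p21 (Cdkn1a), p27 (Cdkn1b) and p57 (Cdkn1c) bind cyclin-CDK complexes, whereas the INK4 proteins p16 (Cdkn2a), p15 (Cdkn2b), p18 (Cdkn2c) and p19 (Cdkn2d) bind CDK4 and CDK6. Cells that leave the cycle to differentiate, such as myoblasts that fuse into myotubes, are known to raise several of them. Butyrate inhibits histone deacetylases, and the transcription of Cdkn1a after such inhibition is a textbook response of dividing cell lines.

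All cells came from male C57Bl/6 mice. Inguinal fat of several mice gave the stromal vascular cells that were turned into adipocytes with a cocktail that held rosiglitazone, macrophages were grown from bone marrow with L929-conditioned medium, myotubes were fused from hindlimb myoblasts, and hepatocytes (C57BL/6NHsd) were isolated by perfusion and plated with dexamethasone, which was removed overnight. Exposure lasted 6 h, to 5 mM butyrate, to 5 mM βOHB or to PBS as the control, with 3 libraries in each of the 12 groups and 18366289 to 23221473 counts per library. The sources used here do not say whether the 3 libraries of a group came from separate animals or cultures, so the p-values measure the spread between these libraries, which may be technical. Adipocytes were judged differentiated by eye, and fibroblasts were removed from the myoblasts only by a short adhesion step, so that other cells could remain.

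The markers of each labelled cell type were highest in its own libraries. In the control libraries the 5 adipocyte markers summed to 8353 to 9051 CPM in adipocytes, the 6 macrophage markers to 16960 to 17130 CPM in macrophages, the 6 myotube markers to 21300 to 26090 CPM in myotubes, and the 6 hepatocyte markers to 36610 to 38340 CPM in hepatocytes. The 5 fibroblast markers summed to 5859 to 6672 CPM in the adipocyte controls, 1508 to 1651 CPM in the macrophage controls, 1118 to 1413 CPM in the myotube controls and 20.2 to 24.5 CPM in the hepatocyte controls. Marker levels of other cells also moved with treatment. Hepatocyte markers summed to 30.8, 556.3 and 127.3 CPM in myotube butyrate libraries 1 to 3 and to at most 0.176 CPM in the myotube controls. In myotube βOHB libraries 1 to 3 they summed to 0.0459, 0.0444 and 24.5 CPM. The highest value, 556.3 CPM, was 1.51% of the level in control hepatocytes. Macrophage markers summed to 271.2, 218.1 and 105.4 CPM in the 3 myotube controls, against 15.5 to 68.5 CPM with butyrate and 42.3 to 104.1 CPM with βOHB. With butyrate, endothelial markers went from 66.35 to 74.22 CPM down to 20.19 to 23.59 CPM in hepatocytes and from 188.0 to 214.6 CPM down to 121.9 to 143.5 CPM in adipocytes. The summed markers of the cell type itself went down to 10520 to 11060 CPM in macrophages and 6535 to 7881 CPM in adipocytes. These sums went down to 13710 to 18770 CPM in myotubes and up to 40870 to 43230 CPM in hepatocytes. In hepatocytes Alb rose from 27340 to 29210 CPM in controls to 32800 to 35190 CPM. Apoa1, of the same list, fell from 5549 to 5633 CPM to 4349 to 4860 CPM. In whole cultures, fewer cells of a type and less RNA per cell cannot be told apart.

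The stretches before the start sites are shown because several of these genes are known to answer to factors that bind close to their start. RefSeq gave windows for 6 of the 7 members on GRCm38.p6, with a pair of start sites each for Cdkn1a, Cdkn2a and Cdkn2c. Sequences run 5′ to 3′ along the gene. Capitals mark the GC box GGGCGG, the motif of Sp1 family factors, searched on both strands, except in the first Cdkn1a window, where they mark matches to the p53 decamer, the consensus of 10 bases that a pair of p53 subunits binds. Bases that belong to an annotated exon of the gene itself were left off. The first Cdkn2c window and most of the Cdkn2d window lie in such exons, so their motifs are described and no letters are printed. The window of the second Cdkn1a start overlaps an exon of AC167363.2, annotated on the other strand.
Cdkn1a, first start, chr17:29090729-29090975, plus strand: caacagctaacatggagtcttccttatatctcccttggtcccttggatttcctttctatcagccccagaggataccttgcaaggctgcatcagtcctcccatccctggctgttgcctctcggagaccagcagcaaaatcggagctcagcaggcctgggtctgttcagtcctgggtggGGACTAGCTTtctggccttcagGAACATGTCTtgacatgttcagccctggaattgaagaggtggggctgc
Cdkn1a, second start, chr17:29093519-29093768, plus strand: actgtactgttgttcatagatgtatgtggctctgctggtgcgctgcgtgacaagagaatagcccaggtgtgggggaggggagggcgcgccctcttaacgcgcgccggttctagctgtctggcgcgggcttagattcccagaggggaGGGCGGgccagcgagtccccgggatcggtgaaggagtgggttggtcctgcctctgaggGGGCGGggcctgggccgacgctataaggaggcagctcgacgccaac
Cdkn1b, chr6:134920151-134920400, plus strand: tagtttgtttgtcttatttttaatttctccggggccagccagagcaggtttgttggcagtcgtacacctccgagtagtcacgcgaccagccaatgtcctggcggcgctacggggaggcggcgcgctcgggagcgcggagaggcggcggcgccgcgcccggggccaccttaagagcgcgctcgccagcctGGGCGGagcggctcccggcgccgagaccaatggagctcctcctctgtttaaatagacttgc
Cdkn2b, chr4:89311040-89311282, minus strand: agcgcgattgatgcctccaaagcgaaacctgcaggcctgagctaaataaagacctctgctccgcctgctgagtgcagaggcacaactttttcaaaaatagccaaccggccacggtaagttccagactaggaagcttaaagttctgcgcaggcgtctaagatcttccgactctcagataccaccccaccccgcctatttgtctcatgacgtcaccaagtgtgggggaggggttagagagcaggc

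In the 250 bases before the start, Cdkn2d and the first start of Cdkn2c each held 3 GC boxes, the second start of Cdkn1a and the first start of Cdkn2a held 2, and Cdkn1b held 1. None was found before the first start of Cdkn1a, the start of Cdkn2b, or the second starts of Cdkn2a and Cdkn2c. Of 32851 RefSeq windows of the same length, 32.7% held at least 1 GC box, 16.7% at least 2 and 8.5% at least 3. The p53 decamer was found 2 times before the first start of Cdkn1a, at 51 to 42 and at 73 to 64 bases before it, and 1 time before Cdkn2d, overlapping a GC box. Of all windows, 7.1% held it at least 1 time and 0.3% at least 2 times. The letters CCAAT occurred 2 times before Cdkn1b and 1 time before Cdkn2d. They were present at least 1 time in 33.8% of all windows and at least 2 times in 10.1%. TATAAA (12.4% of windows) occurred in none of the 9 member windows. These matches describe letters only and are no evidence that a factor binds there.

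**Figure D1:**
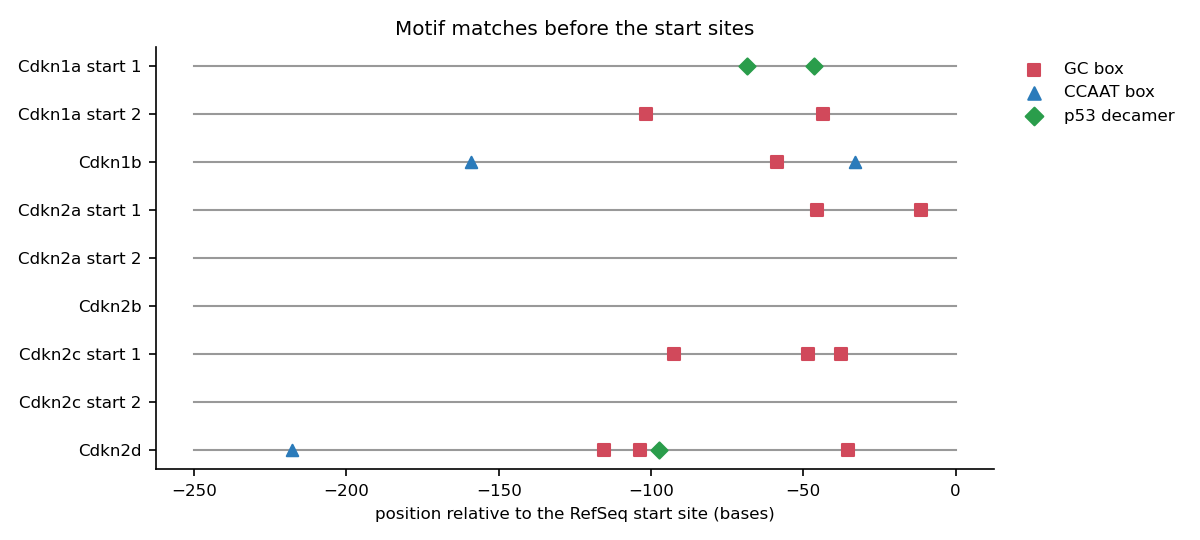
Positions of motif matches in the 250 bases before each of 9 RefSeq start sites of 6 members, with the start at 0 on the horizontal axis in bases. Squares are GC boxes, triangles CCAAT boxes and diamonds p53 decamers. Cdkn2d and the first start of Cdkn2c carry 3 GC boxes each, and Cdkn2b carries no match.

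In untreated cells the members differed widely between cell types. Per kilobase of annotated exon, Cdkn1a was the most abundant member in all 4 cell types, at 625.6 CPM per kb in myotubes, 91.9 in hepatocytes, 73.3 in adipocytes and 53.9 in macrophages (means, n = 3). Myotubes came second with Cdkn2a at 73.4 and Cdkn2b at 46.2 CPM per kb. Adipocytes and macrophages came second with Cdkn2c at 27.5 and 24.1 CPM per kb, and hepatocytes with Cdkn1b at 11.4. Hepatocytes had the lowest control level of 4 members (Cdkn1c, Cdkn2a, Cdkn2c and Cdkn2d), between 0.0693 and 1.009 CPM per kb.

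**Figure D2:**
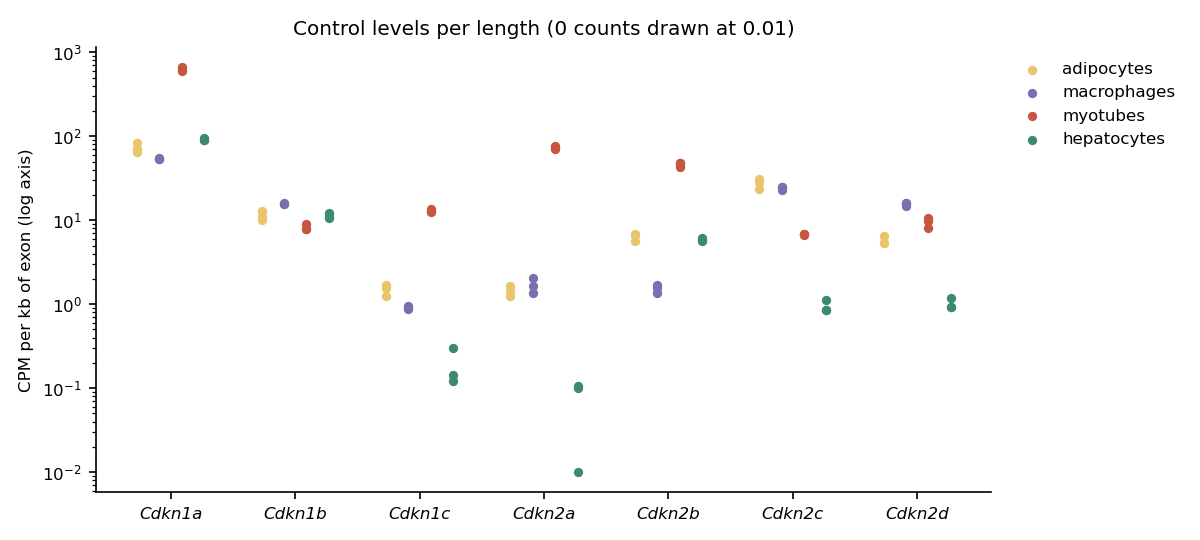
Control level of each member in CPM per kb of annotated exon on a log axis, 1 point per library (3 per cell type), coloured by cell type. Cdkn1a in myotubes (mean 625.6) is the highest value, and Cdkn2a in hepatocytes (2, 0 and 2 counts, with 0 drawn at 0.01) the lowest.

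The order of the control levels was tested between neighbouring cell types for each gene (edgeR quasi-likelihood test). Cdkn1a fell from myotubes (2223 CPM) through hepatocytes (326.5) and adipocytes (260.4) to macrophages (191.3), and all 3 steps passed the test (largest edgeR adjusted p = 0.00151). For Cdkn1b the order was macrophages (71.7 CPM), hepatocytes (52.0), adipocytes (51.5) and myotubes (37.7), with hepatocytes and adipocytes not separated beyond their spread (edgeR adjusted p = 0.882). Cdkn1c was 8.63 times higher in myotubes (26.3 CPM) than in adipocytes (3.05), and the steps to macrophages (1.85) and hepatocytes (0.387) also passed. Cdkn2a was 43.4 times higher in myotubes (86.0 CPM) than in macrophages (1.98), macrophages and adipocytes (1.70) did not differ beyond their spread (edgeR adjusted p = 0.346), and hepatocytes were at the detection floor of 3 counts. Cdkn2b was 7.27 times higher in myotubes (64.2 CPM) than in adipocytes (8.83), which did not differ from hepatocytes (8.16) beyond their spread (edgeR adjusted p = 0.388), and macrophages were lowest (2.14). The order differed for Cdkn2c, with adipocytes (73.7 CPM) and macrophages (64.8) not separated (edgeR adjusted p = 0.124) and above myotubes (18.2) and hepatocytes (2.53). Cdkn2d ran from macrophages (24.7 CPM) through myotubes (15.0) and adipocytes (9.05) to hepatocytes (1.59), and its 3 steps all passed.

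Over the 6 pairs of cell types, 38 of 42 member tests passed. Between adipocytes and macrophages 5 of 7 members passed (77.5% of all genes), between adipocytes and myotubes 7 (78.2%), between adipocytes and hepatocytes 5 (81.1%), between macrophages and myotubes 7 (82.2%), between macrophages and hepatocytes 7 (82.1%), and between myotubes and hepatocytes 7 (86.6%). These shares were near those of all genes.

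**Figure D3:**
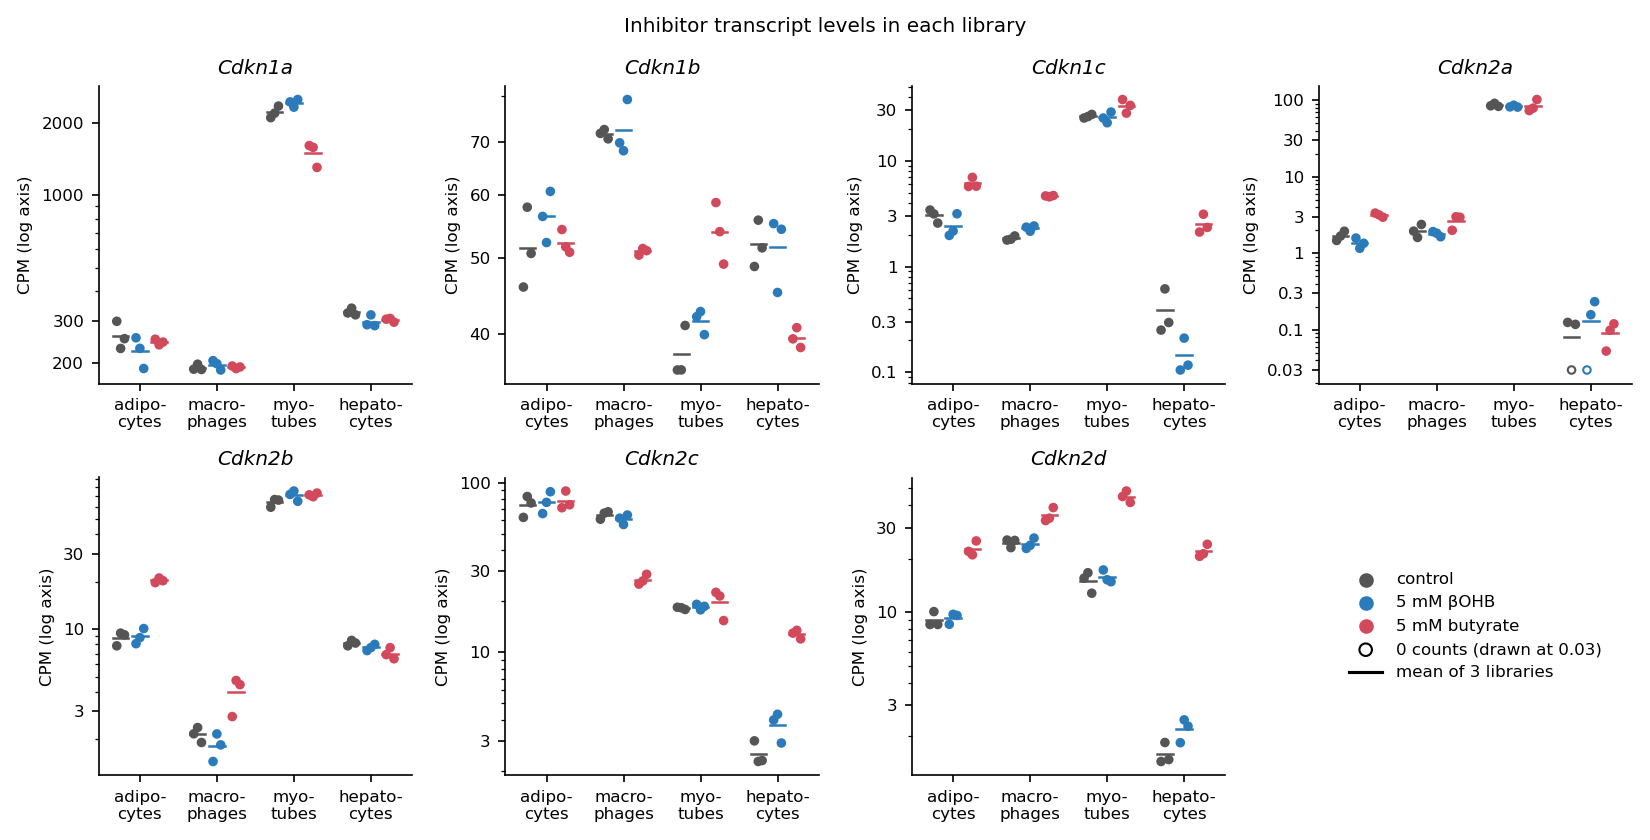
CPM of each member in all 36 libraries on log axes, 1 point per library and a bar at the mean of 3, for control (grey), 5 mM βOHB (blue) and 5 mM butyrate (red), with libraries at 0 counts drawn as open points at 0.03. Butyrate points of Cdkn2d lie above all control points in every cell type, and those of Cdkn1a lie below all control points in myotubes (1308 to 1613 against 2109 to 2357 CPM).

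Butyrate against control was tested in each cell type, on the log2 scale of the edgeR model, and counts of members are set beside the share of all genes called in the same direction. In adipocytes 4 of 7 members rose (30.7% of all genes) and 0 fell (30.3%). In macrophages 3 rose (31.9%) and 2 fell (33.2%). In myotubes 3 rose (33.1%) and 1 fell (33.4%). In hepatocytes 3 rose (31.0%) and 1 fell (32.4%). Of 28 member tests, 13 passed as higher and 4 as lower. With butyrate the sum of the own markers was lower in adipocytes, macrophages and myotubes. That sum was higher in hepatocytes, although Apoa1 was lower there. Endothelial markers were lower in hepatocytes and adipocytes (values above). The adipocyte marker sum in hepatocytes was higher with butyrate than in controls (17.2 to 19.9 in controls against 58.0 to 60.2 CPM). Of this list, Adipoq and Plin1 were at the floor there. The myotube marker sum in macrophages was also higher (6.95 to 13.7 in controls against 20.5 to 58.3 CPM). In hepatocytes the myotube marker sum was higher (27.0 to 27.2 in controls against 42.8 to 47.7 CPM) through Acta1 (mean 18.1 to 41.7 CPM). The other genes of that sum, Myh3, Des, Tnnt3, Ckm and Myog, had lower means with butyrate there. In myotubes the adipocyte marker sum was higher with butyrate (4.84 to 5.68 in controls against 10.9 to 12.1 CPM). Most of it was Lipe (mean 4.58 to 10.3 CPM), and Adipoq, Cidec and Plin1 were at the floor there. Macrophage markers in adipocytes, adipocyte and fibroblast markers in macrophages and fibroblast markers in hepatocytes were lower with butyrate without overlap. In the myotube libraries hepatocyte markers were higher and macrophage markers lower, and the part of all these markers in the member changes was not tested. The median log2 fold change of the members was 0.89, 0.42, 0.16 and 1.12 in adipocytes, macrophages, myotubes and hepatocytes (6 members in hepatocytes, where Cdkn2a was at the floor), with all-gene medians between -0.01 and 0. Scaling by library totals alone in place of TMM moved the median of all genes up by 0.20 in macrophages and 0.13 in myotubes, and by 0.07 or less in adipocytes and hepatocytes.

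**Figure D4:**
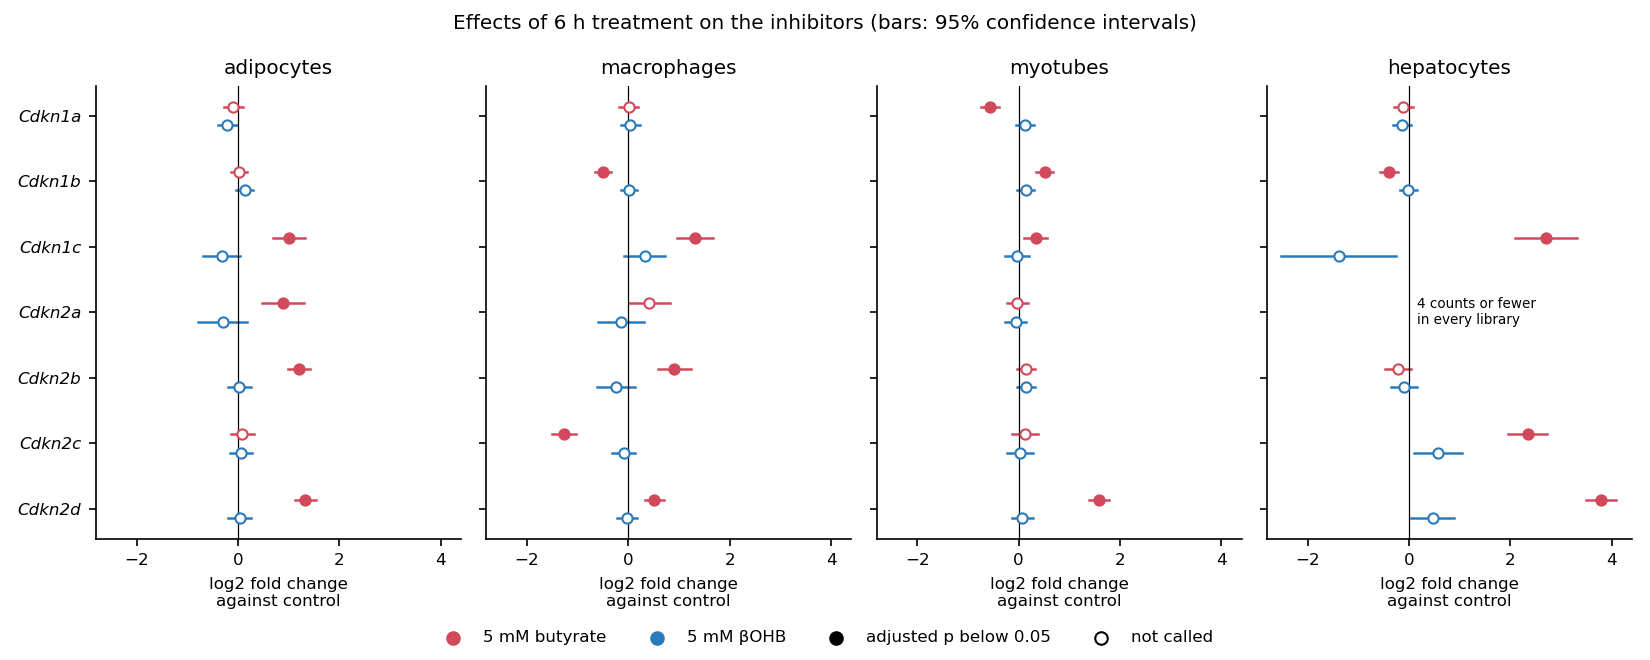
Log2 fold change of each member against control with its 95% confidence interval, in 4 cell types, for butyrate (red) and βOHB (blue). Filled points passed the edgeR test at an adjusted p below 0.05, open points did not, and Cdkn2a in hepatocytes is left out because no library held more than 4 counts. Only butyrate points are filled, and Cdkn2d and Cdkn1c are right of 0 in all 4 cell types.

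Cdkn1a encodes p21, which p53 induces and which halts the cycle in G1 after damage. Its gene lies on GRCm38 at chr17:29090976-29100727, plus strand, where AC167363.2, a gene of the annotation type TEC on the other strand and not tested, overlaps it. As the use of strand in counting is not stated, reads of the pair cannot be told apart. In myotubes it was read at 2109, 2202 and 2357 CPM in the controls and at 1613, 1586 and 1308 CPM with butyrate. All butyrate libraries lay below all controls, and the log2 fold change was -0.57 ± 0.09 (SE; edgeR adjusted p = 2.19e-06). Hepatocyte markers were present in all 3 butyrate libraries (30.8, 556.3 and 127.3 CPM) and at most at 0.176 CPM in the controls. Without butyrate library 2 the value was -0.60 and without library 3 it was -0.47, both called, and the part of these markers in the result was not tested. The 6 myotube markers moved the same way, from 21300 to 26090 CPM in controls to 13710 to 18770 CPM with butyrate, and their part in the result was not tested.

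In the other cell types Cdkn1a moved little. Adipocytes held 298.5, 230.0 and 252.6 CPM in controls and 251.3, 238.2 and 244.5 CPM with butyrate, with overlapping groups. Macrophages held 188.5, 197.7 and 187.9 against 194.3, 189.6 and 192.5 CPM, also overlapping. Hepatocytes held 323.3, 338.6 and 317.6 against 304.6, 306.7 and 296.0 CPM, so that the butyrate libraries lay below the controls but the test was not passed (edgeR adjusted p = 0.296). The 95% intervals of the log2 fold change were -0.27 to 0.09 in adipocytes, -0.18 to 0.19 in macrophages and -0.29 to 0.07 in hepatocytes. A rise of Cdkn1a by a log2 of 0.20 or more lay outside all 3 intervals under TMM scaling. With library totals alone the macrophage value was 0.23, which passed, beside an all-gene shift of 0.20 under that scaling.

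Cdkn1b encodes p27, which accumulates in resting cells and is removed by the Skp2 ubiquitin ligase. It lies at chr6:134920401-134925513, plus strand. Butyrate moved it in opposite directions. In macrophages it went from 71.8, 72.6 and 70.7 CPM to 50.4, 51.4 and 51.0 CPM, a log2 fold change of -0.49 ± 0.08 (edgeR adjusted p = 2.68e-06). In hepatocytes it went from 48.7, 55.8 and 51.5 CPM to 39.5, 40.8 and 38.5 CPM, a log2 fold change of -0.39 ± 0.08 (edgeR adjusted p = 0.000134). Neither pair of groups overlapped, and both fell. In myotubes it rose, from 36.1, 36.1 and 41.0 CPM to 58.7, 53.9 and 49.1 CPM, a log2 fold change of 0.52 ± 0.08 (edgeR adjusted p = 2.14e-06). Adipocytes held 45.9 to 57.9 CPM in controls and 50.8 to 54.3 CPM with butyrate, and the interval was -0.14 to 0.18.

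Cdkn1c encodes p57, the product of an imprinted gene that is known for its role in growth and in muscle differentiation. It lies at chr7:143458339-143461050, minus strand, and an annotated antisense gene, Gm44732, overlaps it and was not tested. The sources do not state whether counting used strand, so reads of the antisense gene cannot be told apart from its own. Butyrate raised it in all 4 cell types. In hepatocytes it was near the floor in controls, with 4, 10 and 5 counts (0.251, 0.615 and 0.296 CPM), and had 40, 63 and 39 counts (2.12, 3.12 and 2.34 CPM) with butyrate, a log2 fold change of 2.70 ± 0.30 (edgeR adjusted p = 2.64e-09). In macrophages it went from 1.78, 1.81 and 1.95 CPM to 4.65, 4.56 and 4.69 CPM, a log2 fold change of 1.32 ± 0.17. In adipocytes it went from 3.42, 3.15 and 2.58 CPM to 5.72, 6.97 and 5.74 CPM, a log2 fold change of 1.02 ± 0.15. No control library reached a butyrate library in these 3 cell types. In myotubes, where its level was highest, it went from 25.4, 26.2 and 27.4 CPM to 37.9, 28.2 and 33.4 CPM, a log2 fold change of 0.33 ± 0.11 (edgeR adjusted p = 0.00968). That call rested on butyrate library 1, without which the value was 0.23 (edgeR adjusted p = 0.0943).

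Cdkn2a encodes p16 and, from another reading frame, the ARF protein that stabilises p53. The count is per gene, so the products of its pair of start sites are not separated here. It lies at chr4:89274471-89294653, minus strand. In adipocytes it rose from 1.47, 1.68 and 1.94 CPM to 3.35, 3.17 and 2.96 CPM, without overlap and with a log2 fold change of 0.89 ± 0.20 (edgeR adjusted p = 0.000307). In macrophages 1.95, 1.61 and 2.38 CPM in controls stood beside 2.00, 3.00 and 2.96 CPM with butyrate. The groups overlapped, and the log2 fold change of 0.42 ± 0.20 was not called (edgeR adjusted p = 0.0694). This value crossed the threshold under DESeq2 (adjusted p = 0.0436). In myotubes, with by far its highest level, controls held 84.3, 90.8 and 82.9 CPM and butyrate libraries 73.1, 78.5 and 101.8 CPM, with an interval of -0.23 to 0.18. Hepatocytes had 2, 0 and 2 counts in controls, 1, 2 and 2 with butyrate and 0, 3 and 4 with βOHB, so no fold change was given.

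Cdkn2b encodes p15, which TGF-β signalling induces. It lies at chr4:89306299-89311039, minus strand, 11.6 kb from Cdkn2a. In adipocytes it rose from 7.84, 9.44 and 9.20 CPM to 19.8, 21.2 and 20.3 CPM, a log2 fold change of 1.21 ± 0.11 (edgeR adjusted p = 2.55e-11). In macrophages it rose from 2.16, 2.37 and 1.90 CPM to 2.78, 4.72 and 4.44 CPM, a log2 fold change of 0.90 ± 0.16 (edgeR adjusted p = 1.03e-05). Neither pair of groups overlapped, although butyrate library 1 of the macrophages lay well under the other two. In myotubes 59.6, 66.7 and 66.2 CPM in controls stood beside 71.5, 69.6 and 73.4 CPM with butyrate. All 3 were higher, but the log2 fold change of 0.16 ± 0.09 was not called (edgeR adjusted p = 0.117), whereas limma-voom (adjusted p = 0.0284) and DESeq2 (adjusted p = 0.0333) called it. In hepatocytes the butyrate libraries, at 6.49 to 7.63 CPM, lay below the controls, at 7.84 to 8.49 CPM, with an interval of -0.48 to 0.04.

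Cdkn2c encodes p18, an INK4 protein known to restrain the growth of blood cells among others. It lies at chr4:109660876-109667189, minus strand. Its largest responses were in opposite directions. In hepatocytes it rose from 3.01, 2.28 and 2.31 CPM to 13.0, 13.5 and 12.0 CPM, a log2 fold change of 2.34 ± 0.19 (edgeR adjusted p = 3.27e-12). In macrophages it fell from 60.9, 66.1 and 67.3 CPM to 25.3, 26.4 and 28.8 CPM, a log2 fold change of -1.27 ± 0.12 (edgeR adjusted p = 5.45e-11). The groups did not overlap in either case. In adipocytes the values overlapped, at 62.4 to 82.9 CPM in controls and 71.1 to 89.3 CPM with butyrate, as they did in myotubes, at 17.9 to 18.4 CPM and 15.4 to 22.6 CPM. The low myotube value was butyrate library 3, without which the log2 fold change was 0.28 (edgeR adjusted p = 0.046) in place of 0.12.

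Cdkn2d encodes p19 of the INK4 family. It lies at chr9:21288410-21291407, minus strand, and the window before its start held 3 GC boxes, as described above. It was the member with the largest rise in every cell type but macrophages. In hepatocytes it went from 1.44, 1.85 and 1.48 CPM to 20.7, 21.4 and 24.1 CPM, a log2 fold change of 3.79 ± 0.15 or 13.8-fold (edgeR adjusted p = 1.31e-19). In myotubes it went from 15.6, 16.7 and 12.8 CPM to 44.9, 48.2 and 41.6 CPM, a log2 fold change of 1.58 ± 0.10 (edgeR adjusted p = 9.05e-15). Adipocytes went from 8.53, 10.1 and 8.53 CPM to 22.0, 21.1 and 25.2 CPM, a log2 fold change of 1.33 ± 0.10 (edgeR adjusted p = 1.9e-12). No group overlapped its control. In macrophages, where the control level was highest, it went from 25.5, 23.1 and 25.4 CPM to 32.9, 33.9 and 38.9 CPM, a log2 fold change of 0.51 ± 0.09 (edgeR adjusted p = 1.51e-05). The control levels spanned 1.59 to 24.7 CPM over the 4 cell types and the butyrate levels 22.1 to 44.9 CPM (means, n = 3).

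The differences between cell types were tested directly. In an F test of the butyrate effect across the 4 cell types all 7 members passed (74.5% of all genes). For Cdkn2a, this test and those against the mean of other cell types include hepatocytes, where it was at the floor. For βOHB 0 of 7 passed (0.978% of all genes), with 2 at an unadjusted p below 0.05. The butyrate effect in adipocytes minus the mean of the other 3 cell types passed for 2 members (32.9% of all genes), Cdkn2b (0.93 ± 0.13, edgeR adjusted p = 1.34e-06) and Cdkn2d (-0.63 ± 0.13, edgeR adjusted p = 0.000225). In macrophages 5 passed (39.9%), the largest being Cdkn2c (-2.12 ± 0.14) and Cdkn2d (-1.72 ± 0.12). In myotubes 5 passed (42.0%), among them Cdkn1a (-0.50 ± 0.10, edgeR adjusted p = 0.000236) and Cdkn1b (0.80 ± 0.09, edgeR adjusted p = 4.27e-08). In hepatocytes 5 passed (46.3%), the largest being Cdkn2c (2.70 ± 0.20) and Cdkn2d (2.65 ± 0.16). The macrophage count was 3 without control library 3, without butyrate library 2 or without butyrate library 3.

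βOHB, which is butyrate with a hydroxyl group on the beta carbon, was given at the same 5 mM for the same 6 h. Against control it changed 0 of 7 members in every cell type by edgeR, limma-voom and DESeq2, beside 0.00652% of all genes in adipocytes, 0.0% in macrophages, 2.91% in myotubes and 0.00652% in hepatocytes by edgeR. For macrophages the unadjusted p was under 0.05 for 358 genes, and DESeq2 called 2 genes. The smallest of the 28 edgeR adjusted p-values was 0.475, and 4 of the 28 had an unadjusted p below 0.05. Cdkn1a held 254.7, 230.3 and 189.7 CPM in adipocytes with βOHB, overlapping the controls (log2 fold change -0.21, 95% interval -0.40 to -0.03), which is 1 of these 4. The other 3 were in hepatocytes. Cdkn1c had 2, 4 and 2 counts there against 4, 10 and 5 in controls (interval -2.51 to -0.25), Cdkn2c held 4.00, 4.32 and 2.92 CPM (interval 0.11 to 1.05) and Cdkn2d 1.84, 2.48 and 2.28 CPM (interval 0.05 to 0.89). In myotubes 446 genes were called with βOHB, a count that was 0 in a fit of the 9 myotube libraries, 895 with no filter on low counts and 175 without control library 1. Macrophage markers were lower in these βOHB libraries than in the controls (42.3 to 104.1 against 105.4 to 271.2 CPM). Myotube markers were higher (26900 to 29250 against 21300 to 26090 CPM). Hepatocyte markers reached 24.5 CPM in βOHB library 3, against at most 0.176 CPM in the controls. The part of these markers was not tested. Cdkn1a held 2453, 2333 and 2510 CPM in myotubes with βOHB, overlapping the controls, with an interval of -0.05 to 0.31. The remaining myotube intervals all lay between -0.27 and 0.32.

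The compounds were compared directly in 4 tests per member, 28 in all, with p-values adjusted over all tested genes in each cell type. Butyrate differed from βOHB for 4 members in adipocytes (59.5% of all genes), 6 in macrophages (64.7%), 4 in myotubes (66.0%) and 4 in hepatocytes (63.5%). Cdkn2d was higher with butyrate in all 4, by a log2 of 1.30 (interval 1.08 to 1.51) in adipocytes, 0.54 (0.35 to 0.73) in macrophages, 1.51 (1.31 to 1.70) in myotubes and 3.32 (3.05 to 3.596) in hepatocytes. Cdkn1c was also higher with butyrate in all 4, by 1.34, 1.00, 0.37 and 4.08 (3.35 to 4.80) in that order, the last against βOHB libraries with 2, 4 and 2 counts. In myotubes the libraries of the compounds overlapped for Cdkn1c (28.2 to 37.9 CPM with butyrate and 22.9 to 28.9 CPM with βOHB). Cdkn1a was lower with butyrate in myotubes by a log2 of 0.70 (interval -0.88 to -0.51, edgeR adjusted p = 6.43e-08). It was not separated between the compounds in adipocytes (interval -0.06 to 0.31), macrophages (-0.22 to 0.15) or hepatocytes (-0.16 to 0.21). The butyrate-against-control and butyrate-against-βOHB comparisons share the butyrate libraries. Cdkn2a in macrophages passed here and not against control (0.56, interval 0.14 to 0.98, edgeR adjusted p = 0.0177).

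The genes around the inhibitors were read from lists of known pathway members. Their counts stand beside 30.7%, 31.9%, 33.1% and 31.0% of all genes higher and 30.3%, 33.2%, 33.4% and 32.4% lower in adipocytes, macrophages, myotubes and hepatocytes. Among 4 CDKs that the inhibitors bind, Cdk4 fell with butyrate in all 4 cell types, with log2 fold changes of -0.46, -0.67, -0.61 and -0.36 in adipocytes, macrophages, myotubes and hepatocytes. In adipocytes 1 CDK fell and 0 rose, in macrophages and myotubes 2 fell and 1 rose, and in hepatocytes 3 fell and 1 rose. The riser in hepatocytes was Cdk1, the mitotic kinase (2.91 to 8.33 CPM, log2 fold change 1.52), and Cdk6, a main target of the INK4 proteins, fell there by 1.83 on the log2 scale, from 178.3 to 50.1 CPM.

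Of 8 cyclins, 2 rose and 2 fell in adipocytes, 1 rose and 5 fell in macrophages, 1 rose and 4 fell in myotubes, and 4 rose and 0 fell in hepatocytes. The list medians were -0.23, -0.52, -0.38 and 0.82. Ccnd3, a D-type cyclin that partners CDK4 and CDK6, rose in adipocytes (0.71), macrophages (1.44) and hepatocytes (1.32) and fell in myotubes (-0.45). Ccne1, the partner of CDK2, rose in myotubes from 10.8 to 30.9 CPM (log2 fold change 1.52).

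Among 11 pocket proteins and E2F factors, which sit downstream of the CDKs, 5 rose and 3 fell in adipocytes, 2 rose and 7 fell in macrophages, 2 rose and 3 fell in myotubes, and 6 rose and 3 fell in hepatocytes, beside 30.3% to 33.4% of all genes in either direction. E2f2 rose in hepatocytes from 2.68 to 24.1 CPM (log2 fold change 3.16) and in adipocytes from 2.60 to 7.15 CPM (1.46). Rb1, the retinoblastoma protein gene, rose in adipocytes (0.57), macrophages (0.49) and hepatocytes (1.66) and was at -0.11 in myotubes, which was not called.

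Several inhibitor proteins are known to be set by their destruction. Of 9 ubiquitin ligase genes that act on them, 1, 1, 2 and 4 rose and 3, 5, 5 and 2 fell in adipocytes, macrophages, myotubes and hepatocytes, beside the same 30.3% to 33.4% of all genes in either direction. Cul1, the scaffold of the SCF ligases, fell in all 4 (-1.42, -1.22, -1.53 and -1.82), and Fbxo31, a substrate receptor, rose in all 4 (0.64, 1.46, 1.27 and 2.08). Skp2, the receptor for p27, rose in hepatocytes from 3.45 to 11.5 CPM (log2 fold change 1.73) and fell in macrophages from 18.6 to 15.8 CPM (-0.23, edgeR adjusted p = 0.0434), and Cdkn1b transcript fell in both. Its values in adipocytes (-0.14) and myotubes (0.20) were not called.

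Of 16 transcription factors and Polycomb proteins known to act on the inhibitor genes, 15 were tested, and 3, 3, 2 and 6 rose and 7, 9, 6 and 7 fell in the same order. Trp53, the p53 gene, fell in all 4 cell types, by 1.25, 1.23, 1.22 and 1.77 on the log2 scale. Its mean level in hepatocytes was 147.9 CPM in controls and 43.4 CPM with butyrate. Bmi1, a Polycomb protein known to silence the Cdkn2a locus, fell in all 4 cell types (-1.31, -1.16, -1.10 and -1.39), while Cdkn2a was called in adipocytes alone. Cbx7, another Polycomb protein, rose in all 4 (1.06, 1.71, 1.59 and 0.36). Sp1, whose family binds GC boxes, fell by 0.22, 0.50, 0.43 and 0.61.

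Of 12 p53 target genes besides Cdkn1a, 3, 2, 1 and 4 rose and 7, 6, 6 and 8 fell, with list medians of -0.44, -0.19, -0.24 and -0.52 beside all-gene medians between -0.01 and 0. Eda2r fell in all 4 cell types (-1.71, -1.11, -2.36 and -1.04), as did Phlda3 (-1.65, -0.48, -1.63 and -1.69). In adipocytes and hepatocytes Sesn1 went the other way (1.03 and 2.02).

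Of 16 genes of DNA replication and mitosis, 1, 0, 2 and 4 rose and 6, 12, 10 and 4 fell. Mki67, the proliferation marker, fell in macrophages from 843.2 to 343.7 CPM (log2 fold change -1.30) and in myotubes from 25.5 ± 8.59 to 6.21 ± 1.93 CPM (SD, n = 3; -2.04). Macrophage markers were also lower in the treated myotube libraries (values above), and their part in the myotube result was not tested. With βOHB 5 genes of all lists were called, all in myotubes and all lower, namely Ccna2 (-1.10), Dtl (-0.78), Top2a (-1.22), Plk1 (-1.09) and Mki67 (-1.22), beside 2.91% of all genes. A fit of the 9 myotube libraries alone called 0 genes, so none of the 5 calls held there. No listed gene was called with βOHB in the other 3 cell types.

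**Figure D5:**
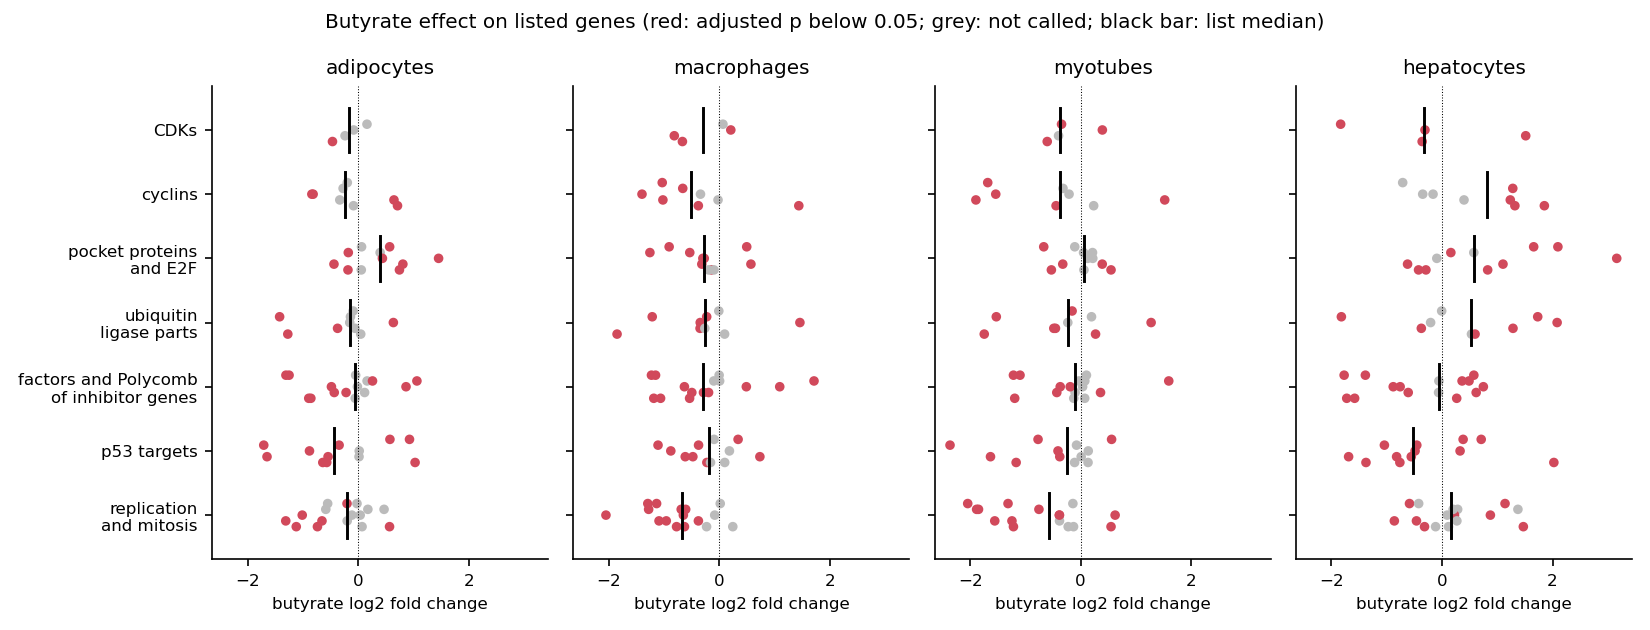
Butyrate log2 fold change of the genes of 7 lists in 4 cell types, 1 point per tested gene, red where the edgeR adjusted p was below 0.05 and grey otherwise, with a black bar at the list median. The replication and mitosis list lies furthest left in macrophages (median -0.67), and the cyclin list lies right of 0 only in hepatocytes (median 0.82).

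The nearest tested gene on each side was read beside each member, with butyrate log2 fold changes in the order adipocytes, macrophages, myotubes and hepatocytes. Trp53cor1, the noncoding RNA also called lincRNA-p21, lies 11.8 kb before Cdkn1a on the other strand. It changed by 0.98, 0.61, -0.73 and -0.66, all called, so that it fell with Cdkn1a in myotubes but moved where Cdkn1a did not pass. Rab44, 13.4 kb beyond Cdkn1a, was called in macrophages (-0.95) and in hepatocytes, where it had 1 count in each control and 23, 25 and 21 counts with butyrate.

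Lockd, a noncoding RNA 3.6 kb beyond Cdkn1b, fell in macrophages (-0.83) and rose in myotubes (1.10, on 8, 3 and 5 control counts), as Cdkn1b did. It also rose in adipocytes (1.25, on 4, 7 and 1 control counts), where Cdkn1b was not called. In hepatocytes, where Cdkn1b fell, Lockd had 0, 0 and 0 counts in controls and 3, 3 and 2 with butyrate, at the floor in both. On the other side, 2810454H06Rik, 19.3 kb away, rose in adipocytes (2.22), macrophages (1.77) and myotubes (0.86) and was not called in hepatocytes (0.24), so that it went against Cdkn1b in macrophages.

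Near Cdkn1c, Kcnq1ot1, the noncoding RNA of the same imprinted region, lies 161.8 kb away and rose in adipocytes (0.69), myotubes (0.96) and hepatocytes (1.31). It was not called in macrophages (0.20, edgeR adjusted p = 0.512), where Cdkn1c rose. The closer Slc22a18, 12.7 kb away, was called only in myotubes, with 3, 1 and 4 counts in controls and 5, 15 and 14 with butyrate, and was at 0.23, -0.04 and -0.08 in adipocytes, macrophages and hepatocytes.

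Mtap, 93.4 kb beyond Cdkn2a, rose by 0.30, 0.50, 0.72 and 0.60, and the gene on the other side of Cdkn2a is Cdkn2b itself. The next tested gene on the far side of Cdkn2b was Gm12671, 2540.6 kb away, called only in adipocytes (-0.59). Beside Cdkn2c, Faf1, 9.4 kb away, changed by 0.38, 0.56, 0.15 and -0.21, all called, and in macrophages and hepatocytes these are the opposite directions to Cdkn2c. On its other side 9630013D21Rik, 3.0 kb away, was called in no cell type and had at most 8 counts per library outside adipocytes. Kri1, which starts 0.4 kb beyond the end of Cdkn2d on the same strand, was at 0.09, -0.08, 0.01 and 0.26, with only the hepatocyte value called, beside 1.33, 0.51, 1.58 and 3.79 for Cdkn2d. Slc44a2, 29.3 kb before Cdkn2d, changed by 1.12, 0.95, -0.57 and 1.67.

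Genes whose mean log2 CPM over the 12 groups followed a member most closely are given as a description, since the groups share cell types and scaling. For Cdkn1a they were Myoz3, a muscle Z-disc protein gene (Pearson r = 0.996 over 12 groups), Ripply1 (0.996) and Ccdc141 (0.994). For Cdkn1b they were R3hcc1l (0.923), Ccdc71l (0.919) and Adora2a (0.909), and for Cdkn1c they were Cfap36 (0.99), Six4 (0.986) and Gfod1 (0.981). Cdkn2a was followed by Gm43682 (0.993), Prkg1 (0.992) and Gm17396 (0.992), and Cdkn2b by Rcan2 (0.989), Zfp105 (0.986) and Coq8a (0.985). Cdkn2c was followed by Rasa3 (0.984), Camsap2 (0.984) and Dsel (0.974), and Cdkn2d by Ppp4r1l-ps (0.975), Bod1l (0.971) and Celsr3 (0.97). Among the members themselves the highest r was 0.92, between Cdkn1c and Cdkn2a, and the lowest -0.67, between Cdkn1b and Cdkn2b.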

How the data were processed

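The members and gene lists were chosen with earlier results of these data known. RNA of 36 libraries was sequenced as paired reads. Per the labels and the methods, the authors quantified transcripts with Salmon 1.2.1 on GENCODE M25 (GRCm38.p6) and summed them with tximport, and the deposited values are estimated counts per gene, of which 55.6% of those above 0 were whole. They were rounded here. Whether strand was used is not given in the sources used here. Samples were grouped by their titles. Symbols and positions came from GENCODE M21 on GRCm38 (54094 of 54347 genes found) and promoter windows from RefSeq (GRCm38.p6).

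The 15340 genes over a CPM of 1 in 6 or more libraries were fitted in 1 model of all 36 libraries with TMM factors and edgeR 4.0.16 quasi-likelihood tests (R 4.3.3), Benjamini-Hochberg adjusted over all tested genes and called below 0.05. Given errors are SE values derived from the log2 fold change and its F statistic. Intervals are at 95% and were built from these errors with a t quantile. CPM use TMM-scaled totals, and log2 CPM a prior count of 2. A gene with a mean of at most 3 counts per library in both groups got no fold change. From each list, the 2 called genes with the highest and the 2 with the lowest log2 fold change per butyrate comparison could be named. Sp1, and values of named genes in further cell types, were chosen after they were seen. Also named were the nearest tested gene on each side of a member and the 3 genes of highest Pearson r over the group means. Alternatives were limma-voom (limma 3.58.1), DESeq2 1.42.0, RLE factors, library totals alone, other filters, fits within 1 cell type, a replicate block and each library left out. The edgeR step was tested on simulated data. Replicate libraries differed by more than sampling noise (chi-square per gene 2.61 to 38.1 over 36 pairs). Detection floors cover counting error only.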

Additional observations from a re-analysis of the deposited data

Results flagged for a closer look

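The butyrate effect differed between the cell types for all 7 members (edgeR F test of the effect across the 4 cell types). For Cdkn2a that test includes the hepatocyte effect, which was at the floor. The gap between the highest and the lowest log2 fold change was 3.62 for Cdkn2c (hepatocytes against macrophages, adjusted p = 2.3e-13) and 3.28 for Cdkn2d (hepatocytes against macrophages, adjusted p = 2.09e-14). It was 2.36 for Cdkn1c (hepatocytes against myotubes, adjusted p = 6.09e-07), 1.43 for Cdkn2b (adipocytes against hepatocytes, adjusted p = 1.15e-08) and 1.009 for Cdkn1b (myotubes against macrophages, adjusted p = 1.57e-08). It was 0.92 for Cdkn2a (adipocytes against myotubes, hepatocytes at the floor, adjusted p = 0.00431) and 0.57 for Cdkn1a (macrophages against myotubes, adjusted p = 0.00085). Of all genes, 74.5% passed the same test. Groups of 3 were not tested for single outlying libraries.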

How the results depend on the processing

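Recomputed counts of members called stayed within 1.5 times the reported one in 445 cases and left that range in 3, which left out 1 macrophage library each, with 3 to 5 members called for the butyrate effect in macrophages minus the mean of the others. Butyrate counts stayed at 4 in adipocytes and hepatocytes, at 5 to 7 in macrophages and at 3 to 5 in myotubes, and βOHB counts at 0. Among the called log2 fold changes 1 lost its call, Cdkn1c in myotubes without butyrate library 1. Cdkn2a in macrophages was called in 4 of 15 settings (adjusted p 0.00825 to 0.26).

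Signs changed only for small values that were not called. With library totals alone they were 0.001 (Cdkn1a, butyrate, adipocytes), 0.112 (Cdkn2a, butyrate, myotubes), -0.005 (Cdkn2b, βOHB, adipocytes) and -0.036 (Cdkn2c, βOHB, myotubes). With no filter they were -0.02 (Cdkn1b, butyrate, adipocytes), -0.008 (Cdkn1a, butyrate, macrophages) and -0.011 (Cdkn2c, βOHB, myotubes). Cdkn2a with butyrate in myotubes was 0.006 by DESeq2 and 0.005 with RLE factors, and Cdkn2c with βOHB in myotubes was -0.003 with filterByExpr and -0.004 within the cell type. Leaving out 1 library gave these ranges for butyrate: in adipocytes -0.172 to 0.02 (Cdkn1a), -0.056 to 0.113 (Cdkn1b) and -0.022 to 0.177 (Cdkn2c), in macrophages -0.008 to 0.037 (Cdkn1a), in myotubes -0.176 to 0.073 (Cdkn2a). For βOHB they were in adipocytes -0.065 to 0.104 (Cdkn2b), -0.053 to 0.162 (Cdkn2c) and -0.005 to 0.121 (Cdkn2d), in macrophages -0.055 to 0.055 (Cdkn1b), -0.263 to 0.007 (Cdkn2a) and -0.082 to 0.017 (Cdkn2d), in myotubes -0.126 to 0.044 (Cdkn1c) and -0.028 to 0.157 (Cdkn2d), and in hepatocytes -0.064 to 0.075 (Cdkn1b). The cause was not tested. Cdkn2a in hepatocytes, at the floor, was given no fold change in any setting.

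Same-numbered libraries did not deviate together (correlations -0.264 to 0.273, and in 0 of 12 pairs of groups were all 3 over 0.1), and the replicate block changed no call of a member, with 4 called for butyrate in adipocytes as without it. Over all genes, βOHB calls moved more, from 446 in myotubes to 0 within the cell type, 895 with no filter and 175 to 589 with 1 library left out. In the other cell types they ranged from 0 to 192. For the βOHB effect across cell types, 150 genes became 87 by limma-voom, 75 with the replicate block, 787 with no filter and 0 to 333 with 1 library left out.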
